A study of Mus musculus with 2 samples.

Results

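The proteasome genes of mouse macrophages were followed in RNA of the nucleoplasm, which is the nuclear fraction left once chromatin has been removed. A gene was taken as a member when its symbol began with Psm, a letter from a to g and a number, and when at least 1 of its transcripts was annotated protein_coding. In the GENCODE M21 annotation 54 symbols matched and 4 of these had no such transcript, which left 50 genes of 55536 annotated genes. Of the 50, 5 formed the immunoproteasome group (Psmb8, Psmb9, Psmb10, Psme1 and Psme2), and Psmc3ip matched the pattern although it encodes a meiotic recombination factor and no subunit.

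The proteasome is the barrel-shaped protease that degrades proteins tagged with ubiquitin. Its core particle stacks rings of alpha subunits (Psma genes), which gate the chamber, on rings of beta subunits (Psmb genes), some of which cut. A regulatory particle of ATPases (Psmc genes) and non-ATPase subunits (Psmd genes) binds, unfolds and feeds the substrate. In immune cells Psmb8, Psmb9 and Psmb10 can take the place of the cutting subunits Psmb5, Psmb6 and Psmb7 in newly assembled cores, and Psme1 and Psme2 form an activator cap; these forms are known for making peptides that suit MHC class I. Interferon gamma is the best known inducer of all 5 genes.

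The material was ribosomal-RNA-depleted total RNA from primary bone-marrow-derived macrophages of the C57BL/6J strain, given Lipid A, the part of bacterial lipopolysaccharide that Toll-like receptor 4 senses, at 100 ng/ml for 60 min. There was 1 group of 2 biological replicates, which carry the same donor label. Sex and age were not collected, and cells without Lipid A, other times and other fractions were not analysed here, so no induction can be read from any value. Library preparation started from 1 µg of RNA in replicate 1 and 500 ng in replicate 2. Annotated genes held 21115765 and 15607391 expected counts in replicates 1 and 2, and mitochondrial genes took 4.05% and 5.74% of counts. All 6 macrophage markers reached 10 TPM in both libraries, where TPM is the share of a library's transcripts that a gene holds, corrected for length, and their summed level was 3369 and 3006 TPM. None of 3 markers each of B cells, neutrophils, dendritic cells and fibroblasts reached 1 TPM in both libraries, with summed levels of at most 2.02 TPM for any of these lists, and the 3 T cell markers had no counts in the gene table. In the second transcript table, made by another route from the reads, Cd3d was at 2.80 and 4.07 TPM and Ms4a1, a B cell marker, at 1.20 and 0.704 TPM, and the cause of this disagreement was not tested. In bulk RNA fewer cells of a type and less RNA per cell cannot be told apart. With 2 libraries of 1 group no test between groups was possible, so differences between genes are set against the spread between the libraries as mean ± SD (n = 2), and no p-value is given.

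The start-site windows of both genes of the Psmb8/Psmb5 and Psmb9/Psmb6 pairs, and of Psme1, are shown as examples. They come from the genes whose levels are compared below, and each of them holds a marked match. Each runs from 250 bases before to 50 bases after the RefSeq start site on GRCm38.p6, written on the gene's own strand. Capitals mark matches, on either strand, to the interferon-stimulated response element core, the gamma-activated sequence TTCNNNGAA, the antioxidant response element TGACNNNGC, the CCAAT box or the kappa B motif.
Psmb8, chr17:34197945-34198244, plus strand: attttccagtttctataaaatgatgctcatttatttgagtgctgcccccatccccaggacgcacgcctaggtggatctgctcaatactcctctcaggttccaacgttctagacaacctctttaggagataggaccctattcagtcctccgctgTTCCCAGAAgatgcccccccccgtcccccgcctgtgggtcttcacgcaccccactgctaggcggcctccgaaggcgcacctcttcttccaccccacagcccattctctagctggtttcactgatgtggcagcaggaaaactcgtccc
Psmb5, chr14:54617946-54618245, minus strand: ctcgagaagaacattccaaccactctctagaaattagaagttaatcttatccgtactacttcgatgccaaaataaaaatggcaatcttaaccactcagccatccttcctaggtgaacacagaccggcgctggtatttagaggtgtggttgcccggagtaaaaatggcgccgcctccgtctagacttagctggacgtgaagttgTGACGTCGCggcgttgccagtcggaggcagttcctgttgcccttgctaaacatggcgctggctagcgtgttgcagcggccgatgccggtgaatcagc
Psmb9, chr17:34187281-34187580, minus strand: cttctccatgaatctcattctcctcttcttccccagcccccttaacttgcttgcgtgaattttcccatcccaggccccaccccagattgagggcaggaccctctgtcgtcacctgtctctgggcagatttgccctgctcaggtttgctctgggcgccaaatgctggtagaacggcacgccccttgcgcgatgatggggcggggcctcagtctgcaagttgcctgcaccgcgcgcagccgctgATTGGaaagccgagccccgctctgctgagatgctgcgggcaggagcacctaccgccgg
Psmb6, chr11:70525107-70525406, plus strand: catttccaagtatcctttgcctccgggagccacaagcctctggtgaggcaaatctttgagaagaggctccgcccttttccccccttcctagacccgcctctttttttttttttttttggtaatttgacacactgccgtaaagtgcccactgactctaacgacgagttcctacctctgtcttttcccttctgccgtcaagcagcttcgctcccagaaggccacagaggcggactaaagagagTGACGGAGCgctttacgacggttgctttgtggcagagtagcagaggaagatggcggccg
Psme1, chr14:55578244-55578543, plus strand: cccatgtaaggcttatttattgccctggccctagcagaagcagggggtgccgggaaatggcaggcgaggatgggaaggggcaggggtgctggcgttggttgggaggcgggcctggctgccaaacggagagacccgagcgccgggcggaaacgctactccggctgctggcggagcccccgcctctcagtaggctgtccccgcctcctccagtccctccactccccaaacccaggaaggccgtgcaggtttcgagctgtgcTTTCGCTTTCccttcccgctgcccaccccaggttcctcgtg
Windows were at hand for 42 of the 50 members. Those of Psmb8, Psmb9 and Psme1 lie within the spans of the GENCODE M21 genes whose levels are given. The RefSeq start sites of these 3 genes are therefore not their outermost annotated starts, and the Psmb9 window also reaches into Tap1. The Psmb8 window held a gamma-activated sequence that began 97 bases before the start site, and the Psme1 window held a response element core that began at base 10 after it. The Psmb9 window held a CCAAT box in reverse at 8 bases before the start, a motif found in 15 of 42 members and in 37.4% of all windows. The windows of Psmb5 and Psmb6 each held an antioxidant response element, 47 and 9 bases before the start, the motif class read by Nfe2l2. The response element core was found in 5 of the 42 members and in 3.44% of all 32851 windows, the gamma-activated sequence in 3 of 42 and 8.30%, and the antioxidant element in 6 of 42 and 12.4%. The kappa B motif was found in 6 of 42 members, none of them in the immunoproteasome group, and in 8.46% of all windows. The ETS core CCGGAAGT was found in 9 of 42 members and in 3.89% of all windows. The windows of Psmb10 and Psme2, which are not shown, held no match to any of these motifs. A member was counted when any of its windows held a match, and the 42 members had 45 windows, while the percentages count single windows. All matches given here are of letters only.

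Across the 50 members, 45 reached 1 TPM in both libraries, against 39.2% of the 22015 protein-coding genes of the nuclear genome, and 19 reached 10 TPM in both, against 14.4%. Of those genes, 8622 reached 1 TPM in both libraries and are called detected below. Of the 45 members, 28 were above the median of the 8622 in both libraries. Within the highest 10% in both were 3 of the 45, Psme2, Psmb6 and Psmd8. By definition that range holds 10% of detected genes in a library. The shares of all detected genes that passed in both libraries were not counted, so neither count shows that members stand high as a set. Together the members took 0.105% and 0.0931% of counts in replicates 1 and 2. Their order by level was close to the same in both libraries (Spearman's rho 0.985 across 50 genes, which are not independent replicates).

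**Figure D1:**
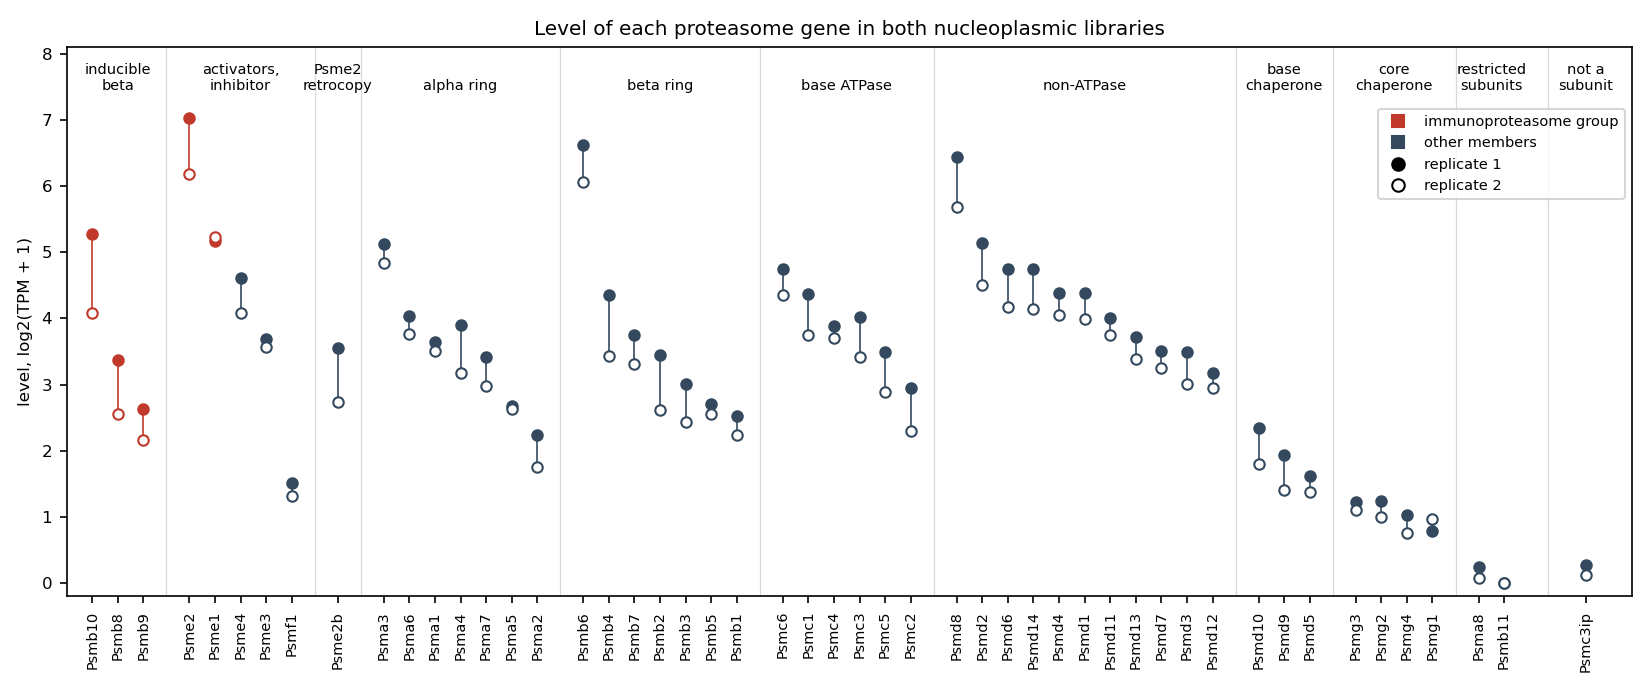
Level of each of the 50 members as log2(TPM + 1), grouped by role and ordered by mean TPM within a role; filled points are replicate 1, open points replicate 2, and red marks the immunoproteasome group. Psme2, Psmb6 and Psmd8 stand highest, at 129.7, 97.1 and 85.6 TPM in replicate 1, and Psmb11, Psma8 and Psmc3ip lie lowest.

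Psmb10, the inducible counterpart of the trypsin-like subunit, was at 37.5 TPM in replicate 1 and 16.0 TPM in replicate 2. Psmb8, the inducible chymotrypsin-like subunit, was at 9.35 and 4.89 TPM. Psmb9, which takes the place of the caspase-like subunit, was at 5.18 and 3.47 TPM. Over all transcripts the 3 inducible beta genes kept this order in both libraries, and each was lower in replicate 2.

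Their constitutive counterparts were ordered differently. Psmb7 was at 12.4 and 8.94 TPM, Psmb5 at 5.50 and 4.86 TPM, and Psmb6 at 97.1 and 66.0 TPM. By TPM over all transcripts Psmb6 was the second highest of all members in each library.

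Set against the subunit each one replaces, the 3 inducible genes gave 3 different pictures. On the log2(TPM + 1) scale Psmb10 minus Psmb7 was 1.15 ± 0.53 (SD, n = 2), with Psmb10 at 3.02 times the Psmb7 TPM in replicate 1 and 1.79 times in replicate 2. Psmb8 minus Psmb5 was 0.34 ± 0.47, a difference smaller than the spread between libraries, with TPM ratios of 1.70 and 1.01. Psmb9 minus Psmb6 was -3.95 ± 0.06, so Psmb9 stood at 0.0534 and 0.0526 times the TPM of Psmb6. Genes of a pair differ in length and in annotated transcripts, and on CPM, counts scaled to the library total with no length correction, Psmb10 minus Psmb7 was -0.61, the opposite sign.

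The pairs also depended on which transcripts were counted. When TPM was summed over transcripts annotated protein_coding alone, a comparison chosen after the data were seen, Psmb8 was at 0.95 and 0.389 TPM, against 5.50 and 4.86 TPM for Psmb5. That difference was -1.91 ± 0.24 on the log2 scale, the reverse of the value over all transcripts. Psmb5 has only protein_coding transcripts annotated, so this restriction could lower Psmb8 against it but could not raise it. Psmb10 was at 6.59 and 3.40 TPM, against 6.96 and 4.52 TPM for Psmb7, a difference of -0.20 ± 0.18. Psmb9 minus Psmb6 kept its sign at -3.20 ± 0.01. Psmb9, at 2.97 and 2.40 TPM, was then above Psmb8 in both libraries: Psmb9 minus Psmb8 was 1.16 ± 0.19, against -0.57 ± 0.24 over all transcripts.

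**Figure D2:**
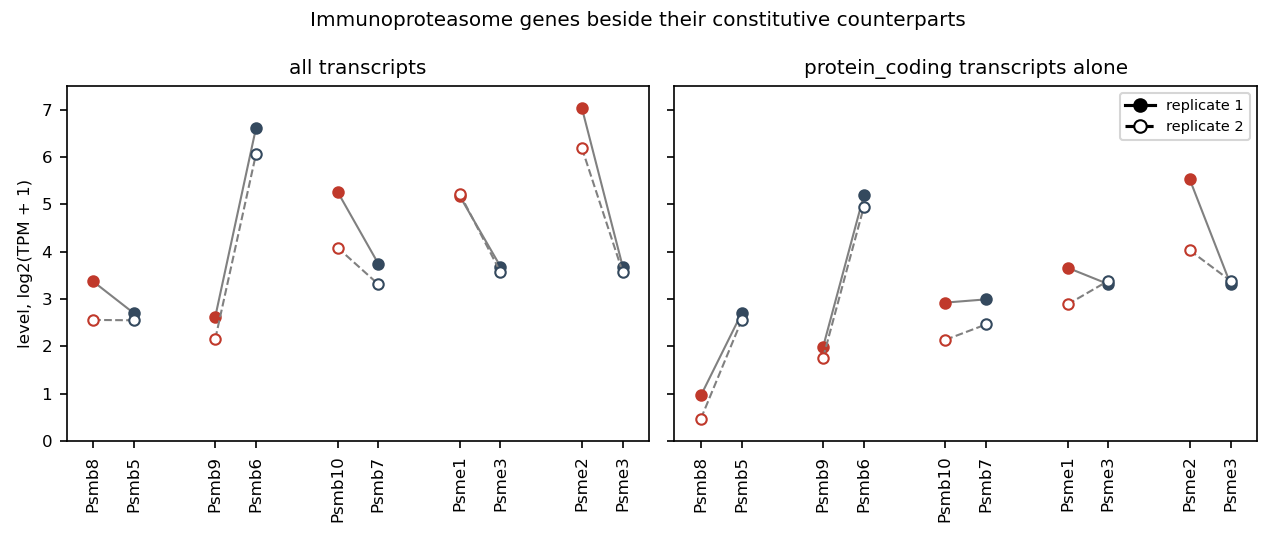
Levels, as log2(TPM + 1), of each immunoproteasome gene (red, left of its pair) and its constitutive counterpart (dark), over all transcripts in the left panel and over protein_coding transcripts alone in the right panel; solid lines and filled points are replicate 1, dashed lines and open points replicate 2. Psmb8 and Psmb10 lie at or above their counterparts in the left panel and below them in the right panel, while Psmb9 lies far below Psmb6 in both.

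Among the activators, Psme2, the beta subunit of the cap, was at 129.7 TPM in replicate 1 and 71.7 TPM in replicate 2. It was the highest of all members by TPM over all transcripts. Over protein_coding transcripts alone it was highest in replicate 1, at 45.07 TPM. In replicate 2 it was then at 15.31 TPM, below Psmb6 at 29.94 TPM and Psmd8 at 29.55 TPM. On CPM Psme4, Psmd8 and Psmd2 were above Psme2 in both libraries. Psme1, the alpha partner of Psme2, was at 35.1 and 36.5 TPM, and was 1 of 2 members with a higher TPM in replicate 2, the other being Psmg1. The difference Psme2 minus Psme1 was 1.41 ± 0.64 log2 units. Psme3, which forms the cap found in nuclei, was at 11.9 and 10.9 TPM. Psme1 minus Psme3 was 1.57 ± 0.12 and Psme2 minus Psme3 was 2.98 ± 0.51 over all transcripts. Over protein_coding transcripts alone these were -0.08 ± 0.60 and 1.43 ± 1.11, so the excess of Psme1 did not hold there. Psme4, the large single-chain activator, was at 23.5 and 15.9 TPM. Psmf1, an inhibitor of the core in vitro, was lowest of this set at 1.85 and 1.48 TPM.

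Psme2b is a single-exon copy of Psme2 on chromosome 11, and was at 10.7 and 5.64 TPM. Its transcript aligned to the longest Psme2 transcript over 794 bases with 5 differing bases (99.4% identity), so the split of counts between them is uncertain. The 60-base coding stretch with the most differences is shown from GENCODE M21 transcripts, with differing bases in capitals.
Psme2, chr14:55588049-55588246, minus strand: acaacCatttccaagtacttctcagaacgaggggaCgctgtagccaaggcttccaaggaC
Psme2b, chr11:48945576-48945635, minus strand: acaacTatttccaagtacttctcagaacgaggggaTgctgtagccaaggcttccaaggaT
In this stretch 3 bases differed, and the Psme2 stretch crosses a splice junction, so its genomic span is longer than its sequence. The counts given to Psme2 were 1447 and 718, and those given to Psme2b were 165 and 81.4.

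As a group the 5 immunoproteasome genes had a median level of 4.63 ± 0.77 on the log2(TPM + 1) scale, against 3.31 ± 0.31 for the 44 other members, Psmc3ip left out. The difference of the medians within a library was 1.32 ± 0.46. Without the activator genes Psme1 and Psme2, a comparison not planned beforehand, it was -0.34. Both genes lay at or above the group median in each library, so leaving them out could only lower that median. The difference was -0.31 over protein_coding transcripts alone, and 0.28 on CPM. Against the 4 constitutive counterparts alone it was 1.05. The median of all detected protein-coding genes was 3.04 ± 0.24.

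The genes of the group lie together in part. On chromosome 17 (mm10) Psmb9 (34181987 to 34187764, minus strand) and Psmb8 (34197721 to 34201454, plus strand) flank Tap1 (34187553 to 34197225, plus strand), which with Tap2 encodes the peptide transporter of antigen presentation. Psmb9 and Tap1 share 212 exonic bases on opposite strands, 5.79% of the exonic bases of Psmb9. The strand setting of the counting is not given in the sources used here, so reads there cannot be assigned to one gene with certainty. Psmb8 likewise shares 14.7% of its exonic bases with the antisense gene Gm20496, which was at 0.25 and 0 TPM. In all, 12 members shared exonic bases with a gene on the opposite strand, and the same doubt holds for each. Among them is Psmb7, the counterpart of Psmb10, which shares 11.8% of its exonic bases with Nek6, at 4.28 and 2.39 TPM. Tap1 ended 495 bases before Psmb8, and Tap2 began 2072 bases after it. Tap1 was at 28.4 and 17.2 TPM and Tap2 at 16.0 and 8.55 TPM, both above Psmb8 and Psmb9 in both libraries. On chromosome 14 Psme1 (55578123 to 55581529, plus strand) and Psme2 (55587441 to 55591113, minus strand) are 5911 bases apart. Psmb10 lies apart, on chromosome 8 (105935735 to 105938444, minus strand).

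The 14 constitutive core genes had a median of 3.31 ± 0.33 on the log2(TPM + 1) scale, or 10.7 and 7.45 TPM. All 14 were above 1 TPM, but their levels were far from equal: the highest was 26.2 times the lowest in replicate 1 and 27.7 times in replicate 2, although the subunits enter the particle in equal numbers. In the second transcript table the range was 18.6-fold and 15.4-fold, with Psmb5 lowest in place of Psma2. Over protein_coding transcripts alone Psmb6 was highest at 35.61 and 29.94 TPM, and Psmb3 lowest at 2.76 and 1.62 TPM. In the alpha ring Psma3 was highest over all transcripts, at 34.0 and 27.5 TPM. Psma6 followed at 15.5 and 12.6 TPM. By mean TPM Psma1 came next at 11.5 and 10.4 TPM, close to Psma4 at 13.9 and 7.98 TPM, which was the higher in replicate 1. Over protein_coding transcripts alone Psma3 was at 7.858 and 9.517 TPM. It was then highest in replicate 2, but below Psma4 at 11.31 TPM and Psma6 at 11.21 TPM in replicate 1. Over all transcripts the lowest alpha genes were Psma2 at 3.70 and 2.38 TPM, Psma5 at 5.39 and 5.17 TPM and Psma7 at 9.64 and 6.91 TPM. In the beta ring Psmb6 was followed by Psmb4, a structural subunit, at 19.5 and 9.83 TPM. The lowest were Psmb1, another subunit with no cutting site, at 4.74 and 3.71 TPM, Psmb5, and Psmb3 at 7.05 and 4.39 TPM, which was above Psmb5 in replicate 1 and below it in replicate 2. By TPM over all transcripts Psmb5 was therefore among the 3 lowest beta ring genes while Psmb6 was the highest. Psmb5 carries the chymotrypsin-like activity that proteasome inhibitor drugs bind. Over protein_coding transcripts alone Psmb7, at 4.52 TPM, was also below Psmb5, at 4.86 TPM, in replicate 2.

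The 20 genes of the regulatory particle and its base chaperones had a median of 3.75 ± 0.27. Among the ATPases Psmc6 was highest over all transcripts, at 25.9 and 19.4 TPM, followed by Psmc1 at 19.7 and 12.4 TPM. Psmc4 was at 13.8 and 12.0 TPM, and Psmc3 at 15.2 and 9.71 TPM. Psmc5 was at 10.2 and 6.42 TPM and Psmc2 at 6.74 and 3.90 TPM. Over protein_coding transcripts alone Psmc6, at 8.447 and 6.383 TPM, was below Psmc1 and Psmc3 in both libraries. Psmc1 was then at 15.7 and 7.844 TPM, and Psmc3 at 10.4 and 7.61 TPM. Over all transcripts the 6 ATPases, which form 1 ring, spanned 3.84-fold in replicate 1 and 4.97-fold in replicate 2, a narrower range than the core genes.

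The 11 non-ATPase subunits had the highest median of the large sets, 4.18 ± 0.28. Psmd8 led at 85.6 and 50.4 TPM, followed by Psmd2, a scaffold that receives ubiquitin shuttles, at 34.3 and 21.8 TPM. Psmd6 came next over all transcripts, at 25.9 and 17.0 TPM, close to Psmd14, the deubiquitinase of the particle, at 25.8 and 16.7 TPM. The lowest of the 11, Psmd12, was at 8.0 and 6.72 TPM. Over protein_coding transcripts alone Psmd8 and Psmd2 still led, and Psmd13 was lowest at 6.475 and 3.764 TPM. Psmd6, at 8.15 and 7.134 TPM, was then below Psmd4, Psmd1 and Psmd14 in both libraries, with Psmd14 at 14.64 and 9.66 TPM. The lowest Psmd genes were the 3 chaperones of base assembly, which leave the finished particle: Psmd10 at 4.09 and 2.48 TPM, Psmd9 at 2.81 and 1.65 TPM, and Psmd5 at 2.07 and 1.60 TPM.

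The chaperones of core assembly were lower still by TPM over all transcripts. Over protein_coding transcripts alone this did not hold, with Psmd5 at 0.84 and 0.69 TPM and Psmg2 at 1.19 and 0.91 TPM. The values that follow are over all transcripts. Psmg3 was at 1.34 and 1.15 TPM, Psmg2 at 1.35 and 1.00 TPM, Psmg4 at 1.04 and 0.69 TPM and Psmg1 at 0.73 and 0.95 TPM. These levels came from few counts, 36 and 31 for Psmg3, 27 and 19 for Psmg2, 8 and 5 for Psmg4 and 15 and 16 for Psmg1, so their order is not resolved at this depth. Both sets of chaperones thus lay below every constitutive ATPase and non-ATPase gene in TPM in replicate 1 and in replicate 2.

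In the gene table the subunits known from other tissues, Psma8 and Psmb11, and Psmc3ip, which is no subunit, were at or near zero. Psma8, the alpha subunit of the testis, had 6 and 1 counts (0.18 and 0.05 TPM). Psmc3ip had 4.89 and 2.21 counts. Psmb11, the subunit of cortical thymic epithelium, had no counts in the gene table of either library, which with a floor of 3 counts allows up to 0.142 and 0.192 CPM. The second transcript table gave the same gene 229 and 137 estimated counts (0.736 and 0.505 TPM). The tables therefore disagree on Psmb11, and the cause was not tested.

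RNA of members was spread over several transcript types. For the 45 members at 1 TPM or more in both libraries, transcripts not annotated protein_coding held a median of 32.3% of the TPM in replicate 1 and 32.5% in replicate 2, against 26.5% and 25.4% for all detected genes. Such transcripts held over 50% in both libraries in 13 of 45 members, or 28.9%, against a background of 18.9%. In the immunoproteasome group they did so in 4 of 5 genes, with a median of 66.8% and 78.7%, against 9 of 40 other members with a median of 30.1% and 31.6%. The number of annotated transcripts differs between genes, and among members with any non-coding transcript annotated the median was 41.6% and 39.8%, against 33.0% and 32.5% for all detected genes of that kind. Measured by expected counts in place of TPM, a comparison chosen after the data were seen, the median was 29.4% and 24.4% in members, against 11.4% and 11.0% in all detected genes. The count over 50% by that measure was 10 of 45 members, against 12.3% of detected genes, and again 4 of 5 in the immunoproteasome group, but with Psmb9 in and Psme2 out.

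Psmb8 had the highest such share of all detected members, 89.8% and 92.0%, all of it on transcripts annotated retained_intron. A single retained_intron transcript of 1234 bases held 58.2% and 62.3% of the gene's TPM, and its 3 protein_coding transcripts together held 0.95 and 0.389 TPM. Psmb10 had 82.4% and 78.7%, of which a processed_transcript of 426 bases held 52.8% and 52.4% and retained_intron transcripts 29.6% and 26.3%. In Psme1 the share was 66.8% and 82.5%; a nonsense_mediated_decay transcript of 439 bases held 18.1% and 48.5%, so the split within the gene was not stable between libraries. In Psme2 it was 65.3% and 78.7%, all on retained_intron transcripts, and 1 protein_coding transcript of 795 bases held 15.7% in replicate 1 and 0% in replicate 2. Psmb9 had 42.6% and 30.9%, the lowest of the 5.

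Outside the group, Psma3 had 76.9% and 65.4% and Psmc6 67.3% and 67.1%. Psmb6 had 63.3% and 54.6% and Psmb7 44.1% and 49.5%. Psme3 had 24.7% and 13.1%, on transcripts typed processed_transcript. Psmb5, Psma2, Psmd10, Psmd12 and Psme2b had 0% in both libraries, and each has only protein_coding transcripts annotated. Reads are placed on overlapping transcripts by estimate, and a short transcript turns few counts into many TPM: the Psme2 transcript of 185 bases held 7.89 and 2.48 counts but 17.2 and 7.26 TPM.

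**Figure D3:**
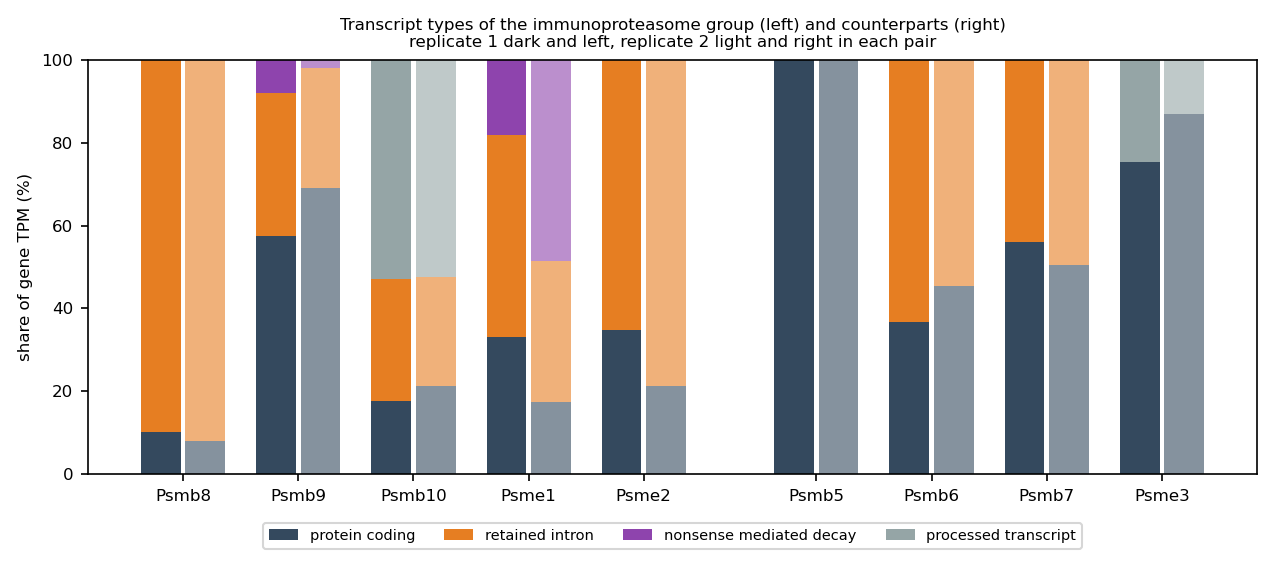
Share of each gene's TPM, in percent, on transcripts of each annotated type, for the immunoproteasome group (left) and the constitutive counterparts (right), with replicate 1 dark and replicate 2 light. Transcripts of other types hold at least 65.3% in Psmb8, Psmb10, Psme1 and Psme2 in each library, and 0% in Psmb5.

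The libraries were compared on counts scaled by TMM over all genes with a mean count of at least 50. Of 43 members that passed, none differed beyond 2-fold between the libraries, against a background of 1.18% of 10088 genes. The ratio of replicate 2 to replicate 1 was below 1 for 32 of 43 members, against 49.9% of all genes, and the median log2 ratio was -0.08 in members and 0.00 in all genes. The immunoproteasome group was lower in replicate 2 in 5 of 5 genes, with a median of -0.50. All 5 were also lower by the second transcript table, with a median of -0.22 and Psmb8 at -0.205. The median over the same 43 members, the group included, was -0.13 by that table, so the group lay closer to the member median there. Psmb10 had the lowest ratio of all members at -0.70. Psme2 was at -0.52 and Psmb8 at -0.50, while Psme1 at -0.07 and Psmb9 at -0.01 were near 0. Outside the group, Psme2b at -0.53 and Psmb4 at -0.50 were as low as Psmb8. The highest ratios were 0.45 for Psme3 and 0.40 for Psma5. In TPM, with no such scaling, 47 of 50 members were lower in replicate 2, and the median log2 ratio was -0.54 in members and -0.42 in all detected genes. The share of all detected genes that were lower was not counted. Their median was negative too, so the count of 47 says little of members in particular. Replicate number, starting amount and depth changed together, and their part in these ratios cannot be told apart.

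**Figure D4:**
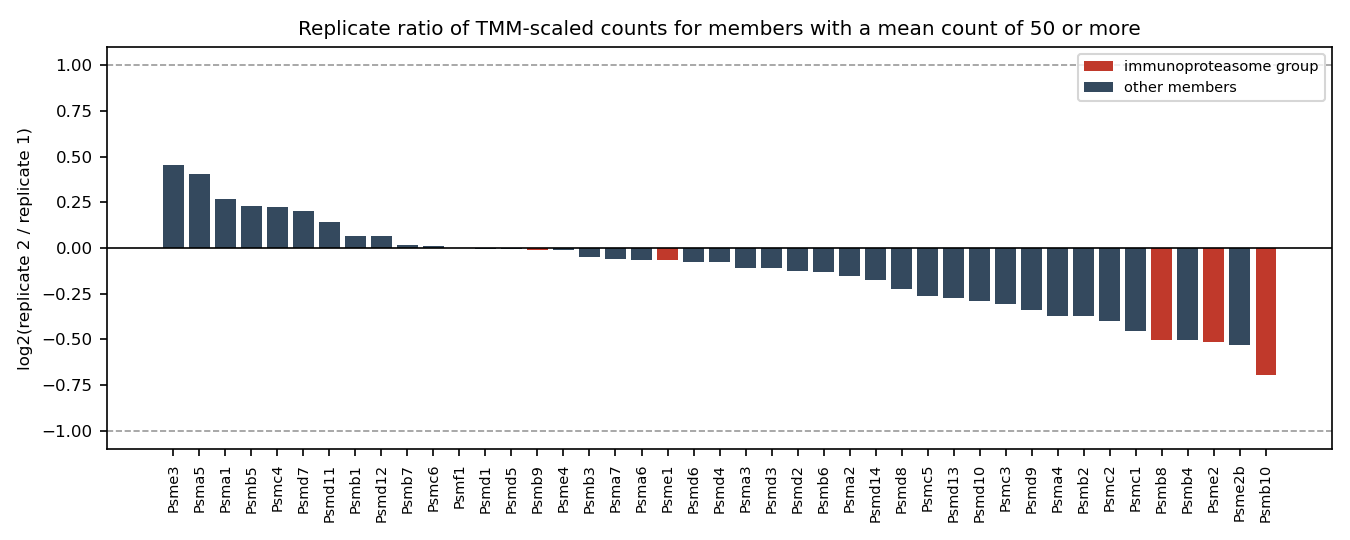
Log2 ratio of TMM-scaled counts, replicate 2 over replicate 1, for the 43 members with a mean count of at least 50, from the highest to the lowest; dashed lines mark 2-fold and red bars the immunoproteasome group. No bar reaches a dashed line, and Psmb10 at -0.70 is the lowest.

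The second transcript table, summed per gene, gave lower TPM than the gene table, at a median ratio of 0.476 and 0.694 over detected genes and 0.489 and 0.743 over detected members. Relative to that median only Psma2 differed beyond 2-fold in both libraries, with ratios of 1.66 and 2.12, against a background of 5.11%. The next largest differences were Psmd14 with ratios of 0.835 and 1.81, Psmd5 with 0.748 and 1.07, Psmd11 with 0.718 and 1.08, and Psme1 with 0.315 and 0.511. 

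Of 28 listed genes that work with the proteasome, 27 were matched, and Paaf1 was not used here. All 27 were at 1 TPM or more in both libraries and 16 at 10 TPM or more. Irf1, a transcription factor that acts on immunoproteasome genes, was highest at 352 and 149 TPM. Nfe2l2, the regulator of the oxidative stress response, was at 127 and 83.3 TPM, and Nfe2l1, its relative that raises proteasome genes when proteasome activity is low, at 49.2 and 29.6 TPM. Rps27a, which encodes ubiquitin fused to a ribosomal protein, was at 59.2 and 44.2 TPM. Nlrc5, a transactivator of MHC class I genes, was at 62.1 and 36.6 TPM. Pomp, the chaperone of core maturation, was at 12.4 and 6.56 TPM, above every Psmg gene. The lowest were the shuttle factors Ubqln2 at 2.35 and 1.87 TPM and Ubqln4 at 4.71 and 3.70 TPM, and Ddi2, the protease that releases Nfe2l1, at 4.54 and 3.59 TPM.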

How the data were processed

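The authors deposited expected counts, which estimate reads per gene or transcript and were not normalised, as their files' columns show. TPM, percent of gene TPM per transcript and interval bounds around TPM were used as deposited by the authors. The files were made on mm10 with GENCODE M21, per the file headers and the notes deposited with them: the gene table and first transcript table from transcriptome alignments, the second transcript table from reads and an index. For the aligner, the quantifiers, their versions and strandedness, the status is: not given in the sources used here. Deposited bounds of TPM, a signal value never below 0 in the authors' tables, are not printed. The authors' percent values per transcript served to read the transcript shares. No value was normalised again except as stated.

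Members and lists were chosen with earlier results of these data known. Named were the immunoproteasome group and its counterparts, the 3 highest and 3 lowest members of each subunit class, restricted members, the 5 largest non-coding shares at 10 TPM, the 5 largest differences between tables, and the extreme genes of the pathway list, of which some are not reported here; other genes were named after their values were seen. Levels are log2(TPM + 1). Rounded expected counts were scaled by TMM in edgeR 4.0.16 (R 4.3.3), with 0.5 added, for genes with a mean count of at least 50, and DESeq2 1.42.0 size factors were an alternative; the step was tested on simulated data with 200 changed genes. Entries that name no gene, 0.662% and 0.232% of counts, were left out. Reads carry no molecular identifiers, so floors cover counting error only. The replicates share a donor label, so their spread may be smaller than that between animals. Promoter windows came from RefSeq (GRCm38.p6), without 8 members. Alternatives were another pseudocount, TPM rescaled over protein-coding genes, the second transcript table, CPM, each library alone, and filters on low values. Python 3.11.15, numpy 2.4.6 and pandas 2.3.3 were used.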

Additional observations from a re-analysis of the deposited data

How the results depend on the processing

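Of 44 values over 10 results recomputed on both libraries, 20 stayed close to the value reported, 19 moved further and 5 reversed; close means within 1 SD of the libraries, within 1.5 times for a count of members or within 0.005 for the median replicate ratio. Values from 1 library alone lie within that SD by construction and say nothing of stability. The second transcript table gave a core median of 2.74 and a regulatory particle median of 2.97. It also gave Psmb9 minus Psmb6 of -3.84 and a non-coding share of 46.3%. Its median replicate ratio was -0.14 over the members that passed the count filter there, Psmb11 included. TPM rescaled over protein-coding genes gave 5.38, 5.86 and, for Psmb9 minus Psmb6, -4.17, with 40 members at 10 TPM or more in place of 19. Rescaling raised the TPM of every gene. The matching share of all protein-coding genes was not counted, so the 40 says nothing of members in particular. CPM gave 4.32 for the regulatory particle, 0.28 for the immunoproteasome group minus other members, 0.97 for Psmb8 minus Psmb5, -2.97 for Psmb9 minus Psmb6 and the reversed -0.61 for Psmb10 minus Psmb7. Protein_coding transcripts alone gave -0.31, -1.91, -3.20 and -0.20 for the group and the 3 pairs, all but the third reversed, and leaving out Psme1 and Psme2 gave -0.34. A pseudocount of 0.1 gave -4.21 for Psmb9 minus Psmb6. Without a filter on low counts 1 member, Psma8, passed 2-fold and the median ratio was -0.094. The share was 42.8% for members at 10 TPM and 26.9% by expected counts. Each library alone gave 3.08 to 3.55 (core), 3.56 to 3.95 (regulatory particle), 1.00 to 1.65 (group difference), 0.01 to 0.67, -3.99 to -3.91 and 0.77 to 1.52 (pairs), 19 to 28 members at 10 TPM and shares of 32.3% to 32.5%. Causes were not tested. No paired analysis was possible because there was only 1 group. Depth limits the Psmg genes, Psma8 and Psmc3ip.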
